A study of Mus musculus with 16 samples.

Results

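The genes described are glutathione S-transferases (GST, mostly cytosolic), the UDP-glucuronosyltransferases (UGT) and the cytosolic sulfotransferases (SULT) of the mouse, taken by symbol. The symbols kept were Gsta, Gstk, Gstm, Gstp, Gstt, Gsto and Gstz, Ugt1a, Ugt2a, Ugt3a and Ugt2b, and Sult1 to Sult5, each followed by a number. Of 36118 genes in the tables, 62 met this rule: 22 GST, 21 UGT and 19 SULT genes. RNA was measured in the colorectum and the liver of male APCMin/+ mice, 8 weeks old at the start, which carry a mutant Apc allele and form intestinal tumours. All groups carried this allele and all drank Neu5Gc (N-glycolylneuraminic acid, a sialic acid) in water for 14 days. The control mice received a low concentration of 0.0127 mg/ml and the treated mice a high concentration of 0.2535 mg/ml, so that no group was without Neu5Gc. Sample labels placed 4 colorectum libraries in the low and 6 in the high group, and 3 liver libraries in each group. The series' design text gives the opposite numbers, 6 control and 4 treated mice. Groups here follow the sample labels, and every direction stated for the colorectum, and every contrast of its change with that of the liver, holds only if those labels are right. No label ties a library to a mouse or says whether tumour or normal mucosa was taken, so p-values measure the spread between these libraries.

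Conjugation makes a lipophilic compound more soluble in water by attaching a polar group to it. GST enzymes attach glutathione to electrophiles, and SULT enzymes attach sulfonate from the donor PAPS. Most UGT enzymes, which lie in the endoplasmic reticulum, attach glucuronic acid from UDP-glucuronate. Intestinal epithelium and hepatocytes are the main sites of these reactions for dietary compounds, drugs, bilirubin, bile acids and steroid hormones.

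Library totals ran from 46.1 to 86.1 in units of 1000000 estimated counts, and the residual variation between libraries of a group (biological coefficient of variation) was 35.5% in the colorectum and 23.2% in the liver. Hepatocyte genes (15 in the list) summed to 127281 to 148227 counts per 1000000 counts of the library (CPM) in the liver. Colonocyte genes (14 in the list, 6 called higher and 2 lower) summed to 12739 to 21128 CPM in the low and 6766 to 11286 CPM in the high colorectum libraries. Some libraries stood apart by genes of other organs. Of 18 kidney tubule genes listed, 13 passed the count filter in the colorectum, and none was at 0 in every library of a group there. The 18 kidney tubule genes summed to 15244 CPM in low colorectum library 4 and to 7.08 to 56.5 CPM in the other 9. That library also held the hepatocyte genes at 2064 CPM, beside 91.2 to 233 CPM in the other 9, and 10 male-biased liver genes at 681 CPM, beside 18.8 to 74.1 CPM. Prostate and seminal vesicle genes (12 in the list) summed to 14.8 to 167 CPM in the low and 143 to 359 CPM in the high colorectum libraries. Only 1 of the 12 passed the count filter there, at a log2 fold change of 2.0, and it was not called. In the low group 3 of the 12 were at 0 in every library. Pancreatic acinar genes (16 in the list, none at 0 in every library of a group) summed to 4543 CPM in low colorectum library 3. Their sums were 223 to 233 CPM in the other low libraries and 858 to 1060 CPM in the high libraries. Of 13 tested in the colorectum, 1 was called higher and 7 lower, with a median log2 fold change of -7.84. In the liver the same list reached 8571 CPM in low library 1 and 3700 CPM in high library 1, against 30.7 to 53.5 CPM elsewhere. Posterior homeobox genes, a list of 6 added after the data were seen, were higher in the high colorectum libraries for 6 of 6 genes and summed to 55.3 to 131 CPM in the low and 536 to 836 CPM in the high group. Small intestinal enterocyte genes summed to 394 to 769 CPM in the low and 195 to 370 CPM in the high group, with 5 of 14 lower. Skeletal muscle genes summed to 47.1 to 82.0 CPM in the low and 127 to 258 CPM in the high colorectum libraries. Of 11 tested there, 1 was called higher and 2 lower. In the liver, 10 of 12 skeletal muscle genes were higher in the high group, with sums of 8.48 to 17.5 CPM against 195 to 261 CPM. Of 16 clock genes 8 were higher and 4 lower there, while edgeR called 0 of 16 in the colorectum, 1 at an unadjusted p below 0.05. The male-biased liver genes summed to 32793 to 51164 CPM in the low and 63919 to 78383 CPM in the high liver libraries, with 2 of 10 called higher and 1 lower. Female-biased liver genes (10 in the list, 4 tested, 1 lower) summed to 8.44 to 16.5 CPM against 4.60 to 6.62 CPM. Some of these differences run with the groups, while others, such as the kidney genes of low colorectum library 4, lie in single libraries. Their part in the results below was not tested. In bulk tissue, fewer cells of a type and less RNA per cell cannot be told apart.

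Promoter sequences are shown for the 7 members that carry the main results. Gstm2 (ENSMUSG00000040562), Gstm6 (ENSMUSG00000068762) and Gstm7 (ENSMUSG00000004035) on chromosome 3, and Ugt2b36 (ENSMUSG00000070704) and Ugt2b5 (ENSMUSG00000054630) on chromosome 5, were called in both tissues, with opposite signs as the groups are labelled. With the colorectum names exchanged, the signs of these 5 genes would be the same in both tissues. Gstp3 (ENSMUSG00000058216) on chromosome 19 and Sult1d1 (ENSMUSG00000029273) on chromosome 5 changed in the colorectum and differed in their change from the liver. Each run holds 250 bases before and 50 bases after the gene's start, from RefSeq on the build GRCm38.p6, 5′ to 3′ along the minus strand on which all 7 genes lie. The windows are chr3:107986371-107986670 for Gstm2, chr3:107943685-107943984 for Gstm6 and chr3:107931768-107932067 for Gstm7. Those of Ugt2b36 and Ugt2b5 are chr5:87092506-87092805 and chr5:87140291-87140590, and those of Gstp3 and Sult1d1 are chr19:4059398-4059697 and chr5:87568957-87569256. The windows match the deposited values by symbol only, because the submitters' processing notes name GRCm39. Capitals mark the longest run shared by the 3 Gstm windows, the longest run shared by the Ugt2b pair, and the motif matches in Gstp3 and Sult1d1.
Gstm2: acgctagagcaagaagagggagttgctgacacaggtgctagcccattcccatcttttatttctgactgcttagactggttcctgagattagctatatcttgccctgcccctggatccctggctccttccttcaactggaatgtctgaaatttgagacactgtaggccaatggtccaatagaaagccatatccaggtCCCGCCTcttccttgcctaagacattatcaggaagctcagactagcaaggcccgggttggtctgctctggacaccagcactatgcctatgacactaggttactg
Gstm6: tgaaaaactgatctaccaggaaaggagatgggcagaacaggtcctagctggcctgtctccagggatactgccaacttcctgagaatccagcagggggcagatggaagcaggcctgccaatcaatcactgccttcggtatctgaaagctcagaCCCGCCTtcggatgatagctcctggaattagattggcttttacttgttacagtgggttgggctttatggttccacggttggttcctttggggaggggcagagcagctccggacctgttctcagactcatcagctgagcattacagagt
Gstm7: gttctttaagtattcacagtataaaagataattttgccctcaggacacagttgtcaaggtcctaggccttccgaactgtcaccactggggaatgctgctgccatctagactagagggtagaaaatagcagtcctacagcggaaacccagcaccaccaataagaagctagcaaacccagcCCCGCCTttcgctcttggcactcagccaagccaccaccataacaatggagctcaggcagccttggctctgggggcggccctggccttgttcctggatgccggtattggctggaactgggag
Ugt2b36: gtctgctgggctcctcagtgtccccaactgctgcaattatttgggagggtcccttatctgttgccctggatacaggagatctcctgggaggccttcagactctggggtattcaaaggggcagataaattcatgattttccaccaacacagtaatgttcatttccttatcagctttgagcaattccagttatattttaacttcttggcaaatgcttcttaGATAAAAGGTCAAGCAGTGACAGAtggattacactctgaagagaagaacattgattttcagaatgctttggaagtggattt
Ugt2b5: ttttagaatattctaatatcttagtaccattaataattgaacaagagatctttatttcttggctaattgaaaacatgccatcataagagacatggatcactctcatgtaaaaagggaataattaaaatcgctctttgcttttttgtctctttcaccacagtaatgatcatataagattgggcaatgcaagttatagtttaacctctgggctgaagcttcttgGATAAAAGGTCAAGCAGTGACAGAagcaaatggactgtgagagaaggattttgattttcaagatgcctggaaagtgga
Gstp3: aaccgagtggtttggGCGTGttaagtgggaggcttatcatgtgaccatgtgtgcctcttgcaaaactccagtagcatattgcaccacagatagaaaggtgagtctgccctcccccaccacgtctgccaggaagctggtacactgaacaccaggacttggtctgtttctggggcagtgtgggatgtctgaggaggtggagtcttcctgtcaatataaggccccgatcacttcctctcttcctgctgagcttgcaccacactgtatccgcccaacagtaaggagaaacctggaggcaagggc
Sult1d1: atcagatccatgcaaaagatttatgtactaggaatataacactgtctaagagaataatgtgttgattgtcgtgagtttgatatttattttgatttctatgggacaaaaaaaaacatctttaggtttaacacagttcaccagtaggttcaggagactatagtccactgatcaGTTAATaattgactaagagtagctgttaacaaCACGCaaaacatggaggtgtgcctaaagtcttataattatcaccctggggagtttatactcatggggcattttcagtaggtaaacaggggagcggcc
The longest run common to the 3 Gstm windows was 7 bases, CCCGCCT, at -54, -98 and -71 from the start in Gstm2, Gstm6 and Gstm7. It was present on either strand in 11.8% of 32851 promoters. Aligned over their whole length, the Gstm windows were identical at no more than 51.5% of positions, beside 46.5% to 52.2% for windows of genes from different classes. The Ugt2b36 and Ugt2b5 windows were identical at 62.2% and shared a run of 24 bases, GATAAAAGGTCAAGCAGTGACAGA, starting at -31 and -28. Of all 32851 promoters 3 held that run, the other being the promoter of Ugt2b37. A set of 4 motifs was searched on both strands in the promoters of 54 members that had an entry. A member counted once if any of its promoters matched, while the share of all promoters is per promoter. The paired percentages are therefore unlike measures. The antioxidant response element TGACNNNGC was in 3 of 54 (5.56%) and in 12.4% of all promoters. The xenobiotic response element GCGTG was in 11 (20.4%) and in 32.4% of all promoters. The D-box, TTATGTAA or TTACGTAA, was in 1 (1.85%) and in 1.06% of all promoters. The HNF1 core GTTAAT was in 14 (25.9%) and in 7.1% of all promoters. Gstp3 held GCGTG at -235, and Sult1d1 held GTTAAT at -79 and the reverse complement of GCGTG at -47. No match to any of the 4 motifs lay in the Gstm or Ugt2b windows shown.

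Transcript levels are given per gene length as TPM, and GST and UGT transcripts made up a larger share in the liver than in the colorectum. Summed GST TPM was 2383, 2540, 1332 and 2558 in the low colorectum libraries and 1971 to 2739 (median 2352) in the high ones, which overlap. In the liver the GST sum was 7643, 7715 and 7203 in the low group and 6589, 7225 and 8205 in the high group, also overlapping. The UGT sum separated the colorectum groups. It was 559, 673, 431 and 1100 TPM in the low libraries and 183 to 302 TPM (median 278) in the high ones, and the highest low value came from the library with kidney genes. Liver UGT sums were 2299, 2523 and 2547 TPM at low and 2556, 2861 and 2273 TPM at high Neu5Gc. SULT sums of the colorectum were 753, 808, 625 and 653 TPM at low and 327 to 687 TPM (median 577) at high Neu5Gc. Liver SULT sums were 910, 1021 and 889 against 946, 955 and 798 TPM, and the groups of the SULT family overlap in both tissues.

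**Figure D1:**
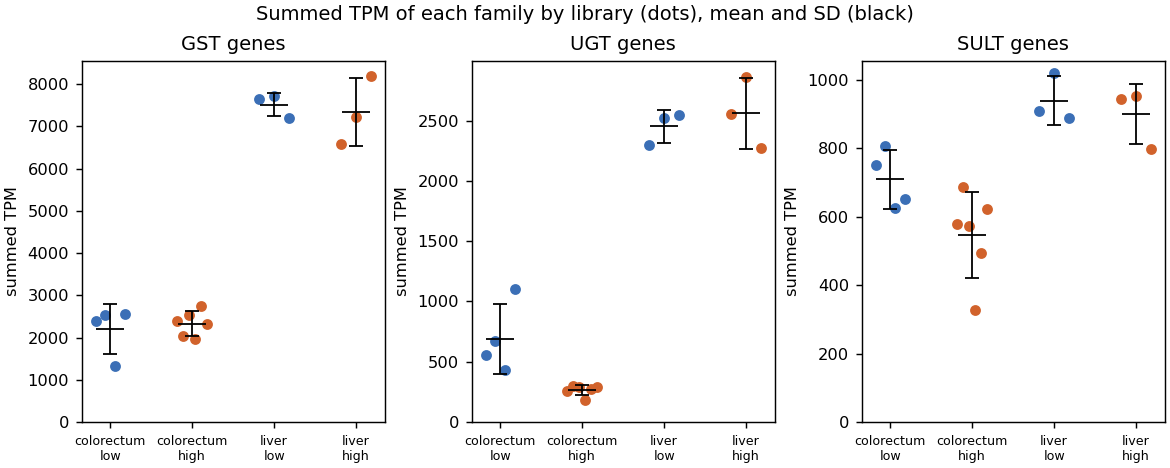
Summed TPM (y axes, linear from 0) of the 22 GST, 21 UGT and 19 SULT genes in each library (dots) for the 4 groups, with the mean and SD in black. The UGT sums of the high colorectum libraries, 183 to 302 TPM, all lie below those of the low libraries, 431 to 1100 TPM.

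A few genes made up most of each family. Gstp1, the pi class enzyme, led the GST genes in the colorectum with a mean of 571 ± 135 TPM (SD, n = 10), ahead of Gsto1, an omega class enzyme that reduces dehydroascorbate, with 434 ± 72.5 TPM and Gstm1 with 302 ± 89.6 TPM. The means plus and minus 1 SD of neighbours among these 3 overlap. Their order within single libraries was not compared. In the liver Gstp1 alone held 44.4% of the GST sum at 3299 ± 965 TPM (n = 6), followed by Gsta3 at 1576 ± 377 TPM and Gstm1 at 842 ± 176 TPM. Ugt2b34 (134 ± 36.9 TPM), Ugt1a7c (106 ± 33.9 TPM) and Ugt1a6a (54.1 ± 42.7 TPM) led the colorectal UGT genes. Ugt1a1 followed at 51.6 ± 55.2 TPM. Pooled over both groups, the means plus and minus 1 SD of neighbours overlap. The pooled order hides the groups. Ugt1a1 was at 105 ± 53.4 TPM and Ugt1a6a at 96.1 ± 37.6 TPM in the low group (n = 4). In the high group (n = 6) they were at 16.3 ± 5.38 and 26.0 ± 8.52 TPM. Ugt1a7c was at 139 ± 26.4 TPM in the low and 83.9 ± 13.4 TPM in the high group. In the high group it lay above Ugt1a6a beyond their spread. Hepatic UGT transcripts were led by Ugt2b5 with a mean of 609 TPM, Ugt2b36 with 417 TPM and Ugt2b1 with 347 TPM. Sult1a1, which sulfonates phenols, held 52.0% of the colorectal SULT sum, with 318 ± 90.8 TPM. In the liver Sult2a8, which sulfonates bile acids, held 69.6% with a mean of 640 TPM. Many SULT genes were close to silent: 11 of 19 stayed below 0.5 CPM in every colorectum library and 12 of 19 in every liver library. The same held for 3 and 2 of the 21 UGT genes and for 1 and 2 of the 22 GST genes. Sult3a1 and Sult3a2 were at 0 in all colorectum libraries.

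High and low Neu5Gc were compared per tissue with edgeR's quasi-likelihood test on the estimated counts, with Benjamini-Hochberg adjustment over all genes tested and a call at an adjusted p below 0.05. In the colorectum 15.5% of 17961 genes were called, 7.29% higher and 8.21% lower at high Neu5Gc. Of the 62 members 46 passed the count filter and 15 of these (32.6%) were called, 7 higher and 8 lower. In the liver 6.47% of 15522 genes were called, 3.15% higher and 3.32% lower. There 47 members passed and 14 (29.8%) were called, 6 higher and 8 lower. The median log2 fold change of all genes was -0.02 in the colorectum and 0.00 in the liver. A member that passes the filter through 1 group alone is bound to differ, so these counts are a description. Sult1e1 passed in that way, and without it 14 of 45 members of the colorectum were called, 6 of them higher. CPM values are printed without the scaling factors that the fit applies, and fold changes are scaled.

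Within the GST family the colorectum showed 4 higher genes, Gstm2, Gstm6, Gstm7 and Gstp3, and 2 lower ones, Gstk1 and Gsta2, of 21 tested. The median log2 fold change of the 21 was 0.16. Groups did not overlap in CPM for 5 of the 21, beside 12.7% of all genes tested. Gstm2, a mu class enzyme, was at 73.4, 75.8, 42.9 and 65.6 CPM in the low libraries and at 82.8 to 133 CPM (median 108) in the high ones. All 6 high libraries lay above all 4 low libraries. The log2 fold change was 0.78 ± 0.17 (SE), a 1.71-fold rise, with an adjusted p of 0.0138. Without low libraries 3 and 4 the Gstm2 difference lost its call, at a log2 fold change of 0.61. Gstm6 was at 10.1, 9.16, 7.89 and 5.61 CPM at low and 13.6 to 22.3 CPM (median 17.2) at high Neu5Gc, again without overlap. It rose 2.16-fold (log2 1.11 ± 0.20, adjusted p = 0.00437). Gstm7 was at 9.86, 13.6, 7.47 and 9.74 CPM against 14.8 to 21.3 CPM (median 17.4), also apart, and rose 1.74-fold (log2 0.80 ± 0.16, adjusted p = 0.00771). The other 4 mu class genes, Gstm1, Gstm3, Gstm4 and Gstm5, had log2 fold changes of 0.12 to 0.43 and were not called.

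Gstp3 had the smallest adjusted p of the family. This pi class gene was at 2.76, 2.17, 1.52 and 1.74 CPM in the low and 6.80 to 12.1 CPM (median 8.69) in the high libraries. Every high library exceeded every low one more than 2-fold. The rise was 4.41-fold (log2 2.14 ± 0.23, adjusted p = 0.000265), while the far more abundant Gstp1 and Gstp2 had log2 fold changes of 0.02 ± 0.23 and 0.34 ± 0.26 and were not called. Transcripts of Gstp1 and Gstp2 share 33.7% and 54.3% of their 50-base words with other genes' transcripts, mainly each other's, so reads between them are uncertain. Gstp3 shares 0.0%. Gstk1, the kappa class enzyme of mitochondria and peroxisomes, was at 72.5, 67.0, 51.0 and 57.8 CPM at low and 33.7 to 50.8 CPM (median 39.1) at high Neu5Gc. The closest values, 51.0 and 50.8 CPM, nearly touch. Its log2 fold change was -0.62 ± 0.13 with an adjusted p of 0.0115. Gsta2, an alpha class gene, was called lower at an adjusted p of 0.0449 on the strength of 1 library. It was at 50.5 CPM in low library 4, which carries the kidney genes, at 0.0768 to 0.897 CPM in the other low libraries and at 0.0618 to 0.58 CPM in the high ones. The groups overlap, and without that library the log2 fold change moved from -5.47 to -0.57 and the call was lost. The Gsta2 call was also lost without any 1 of the high libraries. Gsta3 moved the other way when low library 4 was left out: its log2 fold change of 1.01 ± 0.43 (adjusted p = 0.131) became 1.71 with an adjusted p of 0.00241.

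In the liver 5 of the 7 mu class genes fell. Of 21 GST genes tested 6 were lower, Gsta3, Gstm2, Gstm3, Gstm4, Gstm6 and Gstm7, and 2 were higher, Gstp2 and Gstt2, with a median log2 fold change of -0.26. Groups did not overlap in CPM for 16 of the 21, beside 28.1% of all genes tested. Among the 16 were Gsto2, at 0.198 to 0.209 CPM at low and 0.0735 to 0.118 CPM at high Neu5Gc, and Gsto1. Neither was called, and the scaled log2 fold change of Gsto1 was -0.06. The count filter can keep a gene as low as Gsto2 through 1 group alone, so this count is a description. Gstm2 was at 71.8, 82.3 and 91.2 CPM at low and 48.0, 44.7 and 45.6 CPM at high Neu5Gc. Its log2 fold change was -0.74 ± 0.10 with an adjusted p of 0.00249. Gstm3 was at 68.0, 71.3 and 69.5 CPM against 41.0, 44.6 and 38.2 CPM (log2 -0.67 ± 0.09, adjusted p = 0.00341). All 3 high libraries lay below all 3 low libraries for both genes. Gstm6 was at 103, 117 and 112 CPM at low and 67.2, 64.1 and 70.8 CPM at high Neu5Gc (log2 -0.63 ± 0.10, adjusted p = 0.00711). Gstm7 was at 52.2, 67.7 and 53.9 CPM against 35.5, 31.6 and 39.6 CPM (log2 -0.61 ± 0.13, adjusted p = 0.0248). These groups did not overlap either. The Gstm7 call was lost when low library 1, high library 1 or high library 2 was left out (largest adjusted p 0.108). Gstm4 fell by 0.33 on the log2 scale (adjusted p = 0.0487), a call lost in each of the 6 fits without 1 library (adjusted p 0.0624 to 0.187) and with the counts thinned to 1 depth. Gstm1 and Gstm5 had log2 fold changes of -0.32 and -0.22 and were not called. Summed over the 7 mu class genes, CPM was 1226, 1300 and 1240 in the low and 844, 972 and 871 in the high libraries.

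Among the other hepatic GST genes, Gsta3, the abundant alpha class enzyme, was at 1362, 1644 and 1481 CPM at low and 1125, 1129 and 1005 CPM at high Neu5Gc. Its groups did not overlap, its log2 fold change was -0.38 ± 0.08 and its adjusted p was 0.0223, but the call was lost when any 1 of the 3 low libraries, or high library 1 or 2, was left out (largest adjusted p 0.0865). Gstp2 rose 2.21-fold, from 15.6, 16.3 and 12.3 CPM to 29.4, 26.9 and 36.0 CPM (log2 1.15 ± 0.16, adjusted p = 0.00446). The high values all exceed the low ones. Its near copy Gstp1 was at 1597, 1162 and 1148 CPM against 1527, 1869 and 2713 CPM, groups that overlap, with a log2 fold change of 0.73 ± 0.29 (adjusted p = 0.215). Gstt2, a theta class enzyme, was at 21.8, 23.1 and 19.7 CPM against 33.8, 30.0 and 24.0 CPM, without overlap. It was called higher at an adjusted p of 0.0407, a call lost without any 1 of the 3 low libraries or high library 1 or 2 (largest adjusted p 0.164) and on the TPM scale. Scaled by TPM instead of counts, the median of all liver genes lay at a log2 fold change of -0.16, and calls shifted from 489 higher and 515 lower to 181 higher and 1545 lower genes. On that scale the GST genes gave 1 higher and 10 lower calls. All 7 mu class genes were below 0 in the liver and above 0 in the colorectum under every scaling and tool tried, with the groups as labelled.

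**Figure D2:**
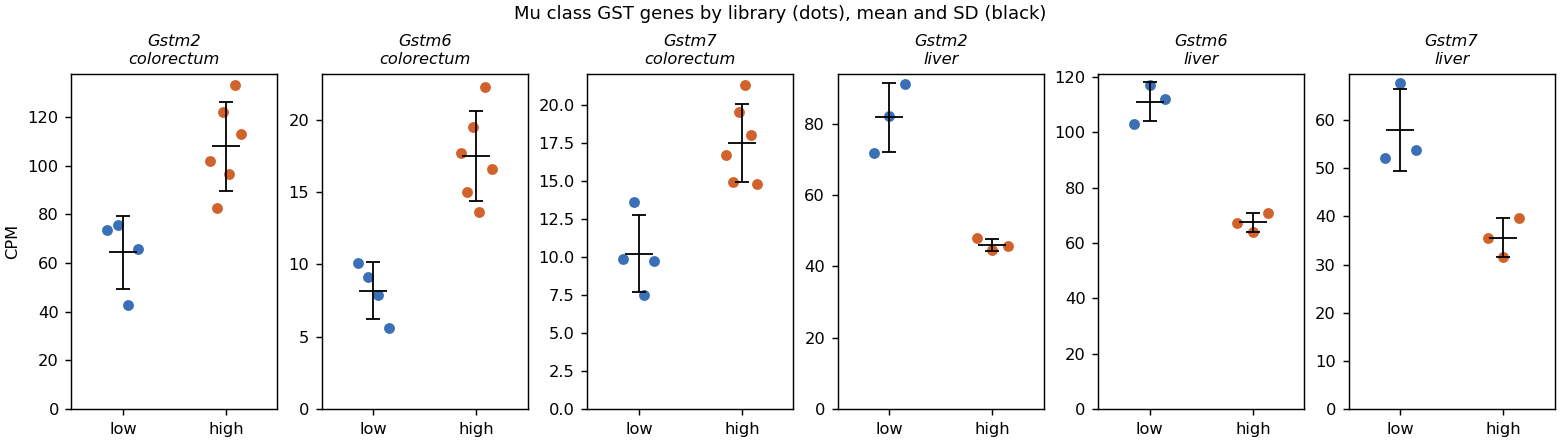
CPM (y axes, linear from 0) of Gstm2, Gstm6 and Gstm7 in each library at low and high Neu5Gc (dots), with the mean and SD in black, for the colorectum (left) and the liver (right). In the colorectum the high libraries lie above the low ones, Gstm6 at 13.6 to 22.3 against 5.61 to 10.1 CPM, and in the liver they lie below, 64.1 to 70.8 against 103 to 117 CPM.

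The change at high Neu5Gc was then compared between the tissues, as an interaction in a fit of all 16 libraries. This test called 8.04% of 18703 genes, 4.08% with a more positive and 3.96% with a more negative change in the colorectum. It called 11 of 50 members tested (22.0%), or 10 of 49 without Sult1e1. Among the GST genes 5 of 21 had a more positive change in the colorectum and 0 a more negative one. The difference in log2 fold change was 1.52 ± 0.25 for Gstm2 (adjusted p = 0.00186), 1.75 ± 0.26 for Gstm6 (adjusted p = 0.000978) and 1.42 ± 0.22 for Gstm7 (adjusted p = 0.00158). For Gstp3 it was 2.40 ± 0.31 (adjusted p = 0.00031), since the gene was at 8.05, 9.85 and 11.7 CPM at low and 7.25, 6.78 and 9.10 CPM at high Neu5Gc in the liver, where it was not called. Gstt3, another theta class gene, had a difference of 0.83 ± 0.21 (adjusted p = 0.0263) although it was called in neither tissue, its log2 fold change being 0.30 for colorectum libraries and -0.52 for liver libraries. Its call was lost without liver low library 2 or 3 or any of the 3 high liver libraries (largest adjusted p 0.0721). The interaction rests on the colorectum labels. With the names of the colorectum groups exchanged, an alternative chosen after seeing the data, the difference was -0.02 ± 0.24 for Gstm2, -0.46 ± 0.26 for Gstm6 and -0.17 ± 0.22 for Gstm7. None of these 3 was called by edgeR with Benjamini-Hochberg adjustment (adjusted p = 0.982, 0.309 and 0.700). Gstp3 was still called, at -1.87 ± 0.30 (adjusted p = 0.00237). In all, 8 of 50 members were called with the names exchanged, beside 5.93% of all genes, and 4 of these 8 were also called as labelled.

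Glutathione supply showed a mixed picture. Of 23 genes for its synthesis, recycling and breakdown, 2 were higher and 4 lower in the colorectum and edgeR called 0 in the liver, where 6 had an unadjusted p below 0.05, DESeq2 called 1 higher and limma on TPM called 5 lower. The medians were -0.21 and -0.16. Gsr, the glutathione reductase, was at 69.5 to 107 CPM at low and 116 to 168 CPM (median 133) at high Neu5Gc (log2 0.52 ± 0.14, adjusted p = 0.0330). Ggt6, a gamma-glutamyltransferase relative, rose with a log2 fold change of 0.48 (adjusted p = 0.0326). Both groups are apart, but both calls were lost without low libraries 3 and 4. Without 1 library, the Gsr call was lost in 6 of 10 fits and the Ggt6 call in 7 of 10. On the TPM scale the Gsr call was lost too. Chac1, which degrades glutathione, fell by 1.29 on the log2 scale (adjusted p = 0.0119), from 1.40 to 2.86 CPM down to 0.572 to 1.23 CPM, without overlap. Ggt1, the surface enzyme that opens glutathione breakdown and is abundant in kidney, was at 311 CPM in low library 4, at 2.43 to 29.9 CPM in the other low libraries and at 1.53 to 4.02 CPM in the high ones. Its log2 fold change was -5.44 with that library and -2.71 without it (adjusted p = 0.0177 and 0.0159). Of 8 microsomal and other glutathione transferases outside the rule, edgeR called 0 in either tissue. An unadjusted p below 0.05 was reached by 1 in the colorectum and 4 in the liver, where DESeq2 called 1 higher and limma on TPM called 2 lower.

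UGT genes of the colorectum were called in 1 direction. Of 15 tested, 5 were lower at high Neu5Gc, Ugt1a1, Ugt1a6a, Ugt1a7c, Ugt2b36 and Ugt2b5, and 0 were higher, with a median log2 fold change of -1.70 beside -0.02 for all genes. Of the 15, 14 had a log2 fold change below 0, Ugt2b35 being the exception at 0.25. Much of that median rested on the library with kidney genes. Without low library 4 the median was -0.53, with 11 of 15 below 0, and without low libraries 3 and 4 it was -0.62, with 13 of 17 below 0. In the latter fit 6 of the 8 Ugt1a genes then tested were below 0. Ugt1a1, the enzyme that conjugates bilirubin, was at 165, 260, 52.3 and 224 CPM in the low and 15.1 to 44.2 CPM (median 26.7) in the high libraries. Low library 3, with the pancreatic genes, was the lowest of its group and still above every high library. The log2 fold change was -2.55 ± 0.41 with an adjusted p of 0.00331, which left 0.171 of the low level. Ugt1a6a, which conjugates planar phenols, was at 221, 237, 84.9 and 158 CPM against 21.8 to 71.7 CPM (median 52.5), also without overlap. It fell by 1.75 ± 0.33 on the log2 scale (adjusted p = 0.00644). Ugt1a7c, the most abundant Ugt1a gene of this tissue, was at 319, 362, 238 and 400 CPM against 162 to 263 CPM (median 206). One of its low values lies within the high range, its log2 fold change was -0.64 ± 0.17 and its adjusted p was 0.0301. The Ugt1a7c call was lost without low library 2, low library 4 or high library 1, and without low libraries 3 and 4 together (largest adjusted p 0.0671 without 1 library).

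The 9 Ugt1a genes lie on chromosome 1 and are spliced from their own starts onto common downstream exons. Their transcripts share 52.1% to 80.2% of 50-base words with other transcripts, mostly each other's, so the split of reads among them is uncertain. Their sum, which that split does not touch, was 710, 863, 381 and 791 CPM in the low and 199 to 350 CPM (median 302) in the high colorectum libraries, without overlap.

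Ugt2b5 and Ugt2b36, whose promoters share the run of 24 bases, belong to a class that conjugates steroids and xenobiotics, and both fell. Ugt2b5 was at 42.6, 51.2, 22.7 and 45.1 CPM at low and at 0.0928 to 3.21 CPM (median 1.15) at high Neu5Gc. Every low library held at least 22.7 CPM and no high library more than 3.21 CPM. Its log2 fold change was -4.66 ± 0.70 (adjusted p = 0.00275). Ugt2b36 was at 3.31, 4.06, 1.97 and 7.55 CPM against 0.37 to 1.03 CPM (median 0.779), without overlap, with a log2 fold change of -2.55 ± 0.39 (adjusted p = 0.00196). Ugt2b36 shares 0.3% of its words with other transcripts and Ugt2b5 shares 41.7%, mainly with Ugt2b38. Ugt2b34, the leading colorectal UGT gene, was at 349, 412, 477 and 307 CPM against 198 to 370 CPM (median 298), groups that overlap, and was not called (log2 -0.43 ± 0.19, adjusted p = 0.141). Without low libraries 3 and 4, the colorectum gave 13 called members, 6 GST, 4 UGT and 3 SULT. Among the 7 Ugt2b genes, Ugt2b37 and Ugt2b38 failed the count filter in the colorectum because they were high in low library 4 alone, at 49.6 and 257 CPM against at most 0.0924 and 0.538 CPM elsewhere.

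**Figure D3:**
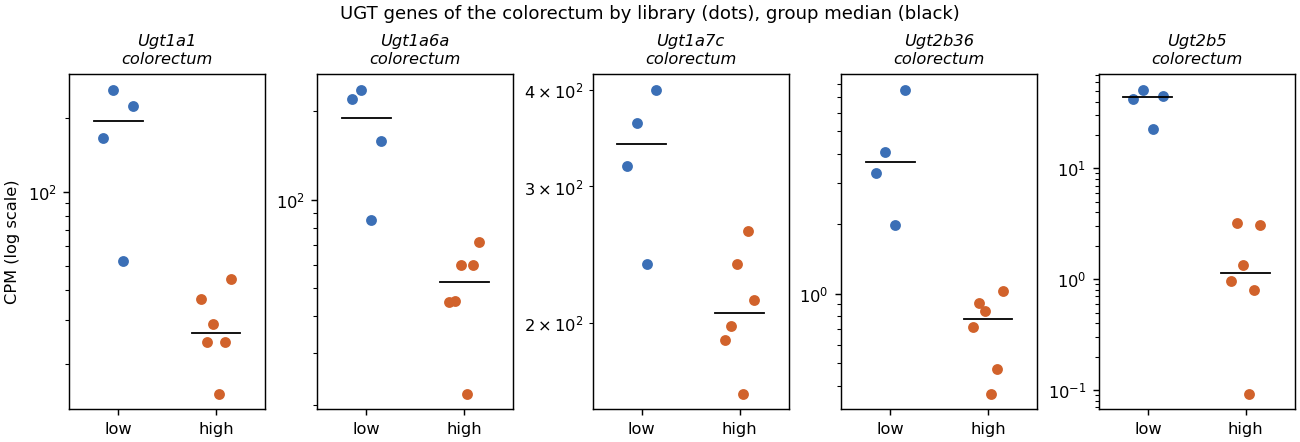
CPM on log scales (y axes) of the 5 called UGT genes in each colorectum library at low and high Neu5Gc (dots), with the group median as a black line. All high libraries lie below all low libraries except for Ugt1a7c, where the low library at 238 CPM falls within the high range of 162 to 263 CPM.

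In the liver some Ugt2b genes rose. Of 19 UGT genes tested 4 were higher, Ugt2b5, Ugt2b35, Ugt2b36 and Ugt2b38, and 1 was lower, Ugt1a9, with a median log2 fold change of 0.19. Groups did not overlap in CPM for 12 of the 19, beside 28.1% of all genes tested. Ugt2b5 was at 733, 709 and 755 CPM at low and 990, 1257 and 994 CPM at high Neu5Gc (log2 0.64 ± 0.11, adjusted p = 0.0103). Ugt2b35 was at 222, 227 and 217 CPM against 312, 308 and 317 CPM (log2 0.58 ± 0.09, adjusted p = 0.00863). Both genes were higher in 3 of 3 high libraries than in any low one, and each call was lost without low library 3 alone (adjusted p 0.0520 for Ugt2b5 and 0.0522 for Ugt2b35, from 0.0126 and 0.0178 upward in the other fits). Ugt2b38 was at 22.2, 18.7 and 22.5 CPM against 37.7, 50.3 and 51.7 CPM and rose 2.34-fold (log2 1.23 ± 0.16, adjusted p = 0.00270). Ugt2b36 was at 463, 499 and 517 CPM against 590, 716 and 567 CPM (log2 0.42 ± 0.10, adjusted p = 0.0402). These groups are apart too, but the Ugt2b36 call was lost on the TPM scale and without any 1 low library or high library 2 (largest adjusted p 0.149). The other 3, Ugt2b1, Ugt2b34 and Ugt2b37, were not called at log2 fold changes of 0.31, 0.19 and 0.46. All 7 were above 0, except that Ugt2b34 was at -0.02 on the TPM scale.

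Ugt1a9, a hepatic enzyme for phenols, was at 123, 141 and 95.2 CPM at low and 67.8, 61.1 and 75.9 CPM at high Neu5Gc. Its groups did not overlap, and it fell by 0.73 ± 0.16 on the log2 scale (adjusted p = 0.0305), a call lost without low library 1 or 2 or high library 1 or 2 (largest adjusted p 0.123). Ugt1a1 was at 478, 552 and 524 CPM against 420, 396 and 360 CPM, without overlap but just short of a call (log2 -0.32 ± 0.08, adjusted p = 0.0554). The summed Ugt1a genes were at 903, 1009 and 968 CPM against 730, 713 and 631 CPM. On the TPM scale, with its lower median, 3 UGT genes were called higher and 4 lower in the liver. Between the tissues the change differed for 3 of 19 UGT genes, all more negative in the colorectum. The difference in log2 fold change was -5.29 ± 0.97 for Ugt2b5 (adjusted p = 0.00488), -2.96 ± 0.51 for Ugt2b36 (adjusted p = 0.00296) and -2.22 ± 0.56 for Ugt1a1 (adjusted p = 0.0254). The Ugt1a1 difference lost its call without any 1 low liver library or high liver library 1 or 2 (largest adjusted p 0.0703). With the colorectum names exchanged these differences were 4.02, 2.13 and 2.87, and all 3 were still called (adjusted p = 0.0227, 0.0220 and 0.00812). For Ugt2b5 and Ugt2b36 they would then be differences in size, with both tissues above 0.

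Some genes that supply the UGT donor were lower in the colorectum as well. Of 8 genes for UDP-glucuronate supply and removal of glucuronate, 4 were lower and 0 higher, also without low libraries 3 and 4, with a median of -0.46. Ugdh, the dehydrogenase that makes UDP-glucuronate, was at 617, 707, 370 and 505 CPM in the low and 115 to 270 CPM in the high libraries. The groups did not overlap, and the log2 fold change was -1.27 ± 0.23 (adjusted p = 0.00495). Slc35d1, which carries UDP-glucuronate into the endoplasmic reticulum, was at 106, 126, 39.9 and 95.5 CPM against 25.7 to 36.5 CPM, again apart (log2 -1.56 ± 0.23, adjusted p = 0.00143). Slc35d2, a related carrier, and Pgm1, which feeds glucose phosphate into the route, fell by 1.02 and 0.55 (adjusted p = 0.0210 and 0.0327). Both of those calls were lost without low library 4, and the Pgm1 call in 6 of 10 fits without 1 library. The liver had 2 of 8 higher and 0 lower: Ugp2, which makes UDP-glucose, was at 203, 201 and 240 CPM against 351, 345 and 298 CPM (adjusted p = 0.00480), and Slc35d1 was at 66.2, 67.3 and 72.3 CPM against 81.5, 96.1 and 86.9 CPM (adjusted p = 0.0374). In both genes the high libraries exceed the low ones. The Slc35d1 call in the liver was lost in 5 of 6 fits without 1 library and on the TPM scale. Between the tissues, 3 of the 8 genes differed, all more negative in the colorectum.

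SULT genes split in the colorectum. Of 10 tested, Sult1b1, Sult1e1 and Sult2b1 were higher and Sult1d1 was lower, with a median log2 fold change of -0.40. Without Sult1e1, whose call its low counts fix, 2 of 9 were higher. Leaving out low library 4 moved the median to -0.15, with 5 genes above and 5 below 0. Sult1d1, which sulfonates catecholamines and related compounds in the mouse, was at 248, 280, 216 and 280 CPM in the low and 55.3 to 159 CPM (median 95.1) in the high libraries. No library of one group reached the other. It fell by 1.41 ± 0.23 on the log2 scale (adjusted p = 0.00289), and no fit without 1 library lost the call. Sult2b1, which sulfonates cholesterol and pregnenolone, was at 19.9, 21.1, 17.0 and 17.0 CPM against 22.3 to 37.5 CPM (median 30.0), narrowly apart. Its rise was 1.62-fold (log2 0.70 ± 0.19, adjusted p = 0.0308), and the call was lost without low library 1, 2 or 4 or high library 1, 5 or 6 (largest adjusted p 0.0673), and without low libraries 3 and 4 together. Sult1b1, an enzyme for thyroid hormones and phenols, was at 91.8, 102, 68.9 and 75.6 CPM against 92.3 to 183 CPM (median 131). The ranges overlap, the rise was 1.59-fold (log2 0.67 ± 0.20) and the adjusted p was 0.0479, above the threshold in 8 of 10 fits without 1 library (up to 0.102), all but those without high library 3 or 4. Sult1b1, Sult1d1 and Sult1e1 all lie on chromosome 5, and their transcripts share 0.0% of their words with any other.

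Sult1e1, the estrogen sulfotransferase, passed the count filter through the high group alone. It had 3 estimated counts over the 4 low libraries, at most 1 in any, and 82 over the 6 high ones, from 3 to 20 each. In proportion to library size this is a ratio of 19.8, with a 95% interval of 6.54 to 98.0 that covers counting error only. The filter that kept this gene selects for such a difference, so its call is no test and is given as a description. Without high library 1, 2, 4 or 6 the gene no longer passed the filter. All high libraries lay above the low ones, at levels of 0.053 to 0.39 CPM. Sult1a1, which made up most of the family's RNA, was at 359, 380, 287 and 282 CPM against 108 to 313 CPM (median 275), overlapped and was not called (log2 -0.36 ± 0.25, adjusted p = 0.332).

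In the liver Sult1a1 was the 1 SULT gene called of 7 tested, with a family median of 0.24. It was at 207, 233 and 172 CPM at low and 126, 122 and 131 CPM at high Neu5Gc, without overlap. The log2 fold change was -0.61 ± 0.13 (adjusted p = 0.0268), and the call was lost without low library 1 or 2 or high library 1 or 2 (largest adjusted p 0.115). Sult2a8 was at 766, 806 and 765 CPM against 950, 1014 and 816 CPM, apart but not called (log2 0.33 ± 0.09, adjusted p = 0.0596). Sult1d1 was at 68.9, 90.0 and 67.9 CPM against 89.5, 87.0 and 88.8 CPM, which overlap (log2 0.31 ± 0.12, adjusted p = 0.154). Between the tissues the change differed for 2 of 9 SULT genes, leaving out Sult1e1. The difference in log2 fold change was -1.71 ± 0.34 for Sult1d1 (adjusted p = 0.00724) and -0.94 ± 0.25 for Sult1c2 (adjusted p = 0.0323), which was called in neither tissue and lost this call on the TPM scale and in 6 of 16 fits without 1 library (low colorectum library 4, the 3 low liver libraries and high liver libraries 1 and 2, adjusted p up to 0.0985). With the colorectum names exchanged neither was called, at 1.10 and -0.06. Sult1e1 was at 0.0577 to 0.19 CPM in the liver libraries.

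**Figure D4:**
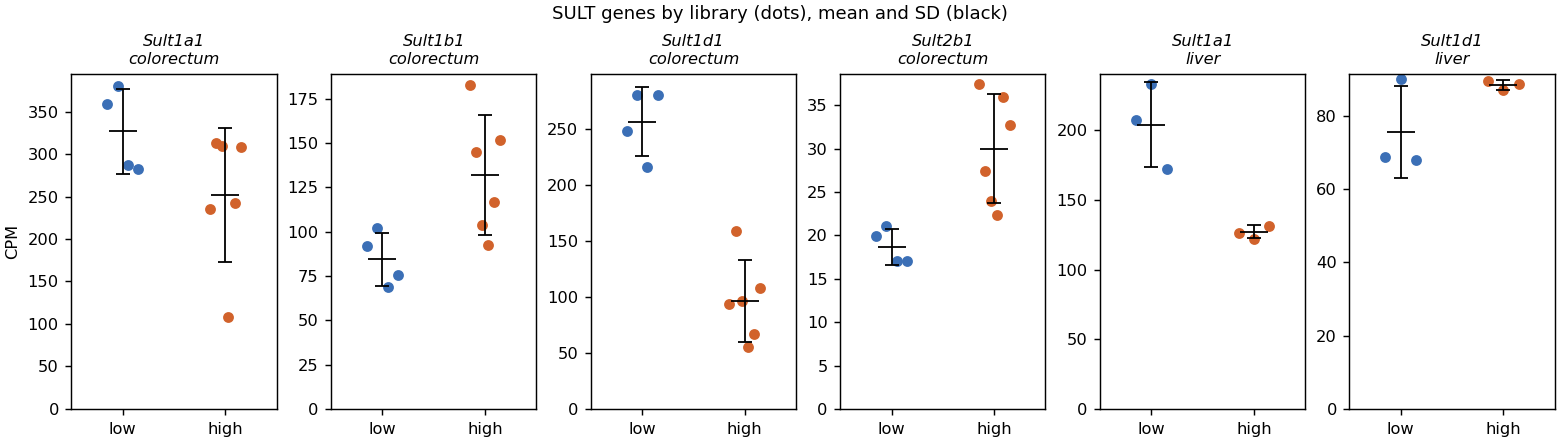
CPM (y axes, linear from 0) of SULT genes in each library at low and high Neu5Gc (dots), with the mean and SD in black. Sult1d1 of the colorectum falls from 216 to 280 CPM at low to 55.3 to 159 CPM at high Neu5Gc, while in the liver its groups overlap at 67.9 to 90.0 CPM.

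Of 13 genes for sulfate uptake, PAPS synthesis and desulfation, 3 were lower and 0 higher in the colorectum, with a median of -0.11. Papss2, a PAPS synthase, was at 301, 382, 231 and 379 CPM at low and 168 to 213 CPM at high Neu5Gc, without overlap (log2 -0.81 ± 0.14, adjusted p = 0.00458). Slc13a1, the sodium sulfate carrier of kidney and intestine, was at 29.4, 39.0, 12.2 and 102 CPM against 0.369 to 3.18 CPM. Its groups are apart, and its log2 fold change was -4.70 ± 0.70 (adjusted p = 0.00271) and -3.90 without low library 4. Slc26a1, another sulfate carrier, was called through that library, at 51.1 CPM against 1.13 to 1.35 CPM in the other low libraries. The call was lost without it (log2 -4.30 and -0.79), and in 7 of 10 fits without 1 library. In the liver 1 of 12 was called, Impad1, a phosphatase of the sulfonation by-product PAP, which rose 1.51-fold (adjusted p = 0.0103), a call lost on the TPM scale.

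Other conjugating enzymes and carriers of conjugates completed the comparison. Of 16 conjugating enzymes outside the rule, 4 were lower in the colorectum and 0 higher, and without low libraries 3 and 4 these became 2 lower and 1 higher. Ugt8a, the UGT relative that attaches galactose to ceramide, was at 3.49, 7.24, 0.897 and 31.7 CPM against 0.0686 to 0.44 CPM, without overlap (log2 -5.77 ± 0.93, adjusted p = 0.00347, and -4.22 without low library 4). Hnmt, the histamine methyltransferase, fell by 0.98 (adjusted p = 0.0410). Its call was lost in 7 of 10 fits without 1 library, among them that without low library 4. Glyat and Acsm1, of glycine conjugation, were at 178 and 60.4 CPM in low library 4 and below 1.3 CPM in every other. Both calls were lost without it, and each in 7 of 10 fits without 1 library. In the liver 1 of 16 was higher and 2 were lower. As3mt, which methylates arsenic, was at 25.8, 30.3 and 30.0 CPM against 19.7, 19.6 and 21.7 CPM, without overlap (log2 -0.41, adjusted p = 0.0469). Acsm3, of the same family as Acsm1, was at 65.2, 75.2 and 83.7 CPM against 113, 118 and 84.9 CPM, narrowly apart and higher (log2 0.57, adjusted p = 0.0301). Both calls were lost in 5 of 6 fits without 1 library. Of 13 conjugate carriers, 5 were lower in the colorectum and 0 higher. Slc51a, a basolateral bile acid and steroid conjugate carrier of the ileum, was at 106, 175, 17.8 and 167 CPM against 0.199 to 1.77 CPM (log2 -7.08 ± 0.73, adjusted p = 0.000427). No high library came near the lowest low library. Abcg2, which exports sulfates and glucuronides at the apical membrane, fell by 0.94 ± 0.25 (adjusted p = 0.0285), with overlapping groups. Its log2 fold change was -0.55 without low library 4, still called, and the call was lost without high library 1, 3 or 5. In the liver Slco1b2, the uptake carrier for bilirubin glucuronide and bile acids, was at 725, 891 and 829 CPM against 1502, 1590 and 1160 CPM and rose 1.84-fold (adjusted p = 0.00189). Slco1a1 was also higher (adjusted p = 0.0438), a call lost on the TPM scale and in every fit without 1 library except that without high library 3. None of the 13 was called lower.

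Regulators of these families moved in mixed directions in the colorectum, where 2 of 17 were higher and 4 lower. Nr1i3, the xenobiotic receptor CAR, was at 1.12, 1.22, 0.825 and 2.05 CPM against 2.83 to 5.85 CPM (log2 1.61 ± 0.32, adjusted p = 0.00775). Nr1i2, the xenobiotic receptor PXR, was at 40.0 to 69.2 CPM against 77.4 to 90.8 CPM (log2 0.57 ± 0.12, adjusted p = 0.0107). Both sets of groups are apart, and the Nr1i2 call was lost without low libraries 3 and 4. Ppara, the fatty acid receptor, fell by 1.78 ± 0.33 (adjusted p = 0.00600), from 10.4 to 38.5 CPM down to 3.92 to 9.89 CPM. Nr1h4, the bile acid receptor FXR, fell by 0.90 ± 0.20 (adjusted p = 0.0120), with overlapping groups. Target genes of CAR and PXR were lower in 4 of 9 cases and higher in 0. Cyp2c55 was at 1631, 1903, 719 and 1365 CPM against 64.1 to 263 CPM (adjusted p = 0.00107), and Aldh1a1 was at 222, 277, 108 and 166 CPM against 17.6 to 42.7 CPM (adjusted p = 0.000193). Neither set of groups overlaps. Cyp3a25 and Cyp3a11 were the other 2. The Cyp3a11 call rested on low library 4 and was lost in 7 of 10 fits without 1 library. In the liver Ppara (log2 0.72, adjusted p = 0.0216) and Bach1, a repressor of Nrf2 target genes (log2 0.57, adjusted p = 0.0429), were higher of 16 regulators. Both calls were lost without low library 1 or 3 or high library 1 or 2, and on the TPM scale. Cyp2c29 was the 1 CAR and PXR target lower there, of 10 tested (adjusted p = 0.0110), and the call was lost without low library 3.

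Of 20 Nrf2 target genes, which answer to oxidative and electrophile stress, 4 were higher and 2 lower in the colorectum. Txn1, thioredoxin, was at 567, 582, 240 and 466 CPM against 646 to 1172 CPM, without overlap (log2 0.93 ± 0.23, adjusted p = 0.0227). G6pdx, which makes NADPH, rose by 0.55 (adjusted p = 0.0271, lost in 5 of 10 fits without 1 library) and Me1, malic enzyme, fell by 3.08 ± 0.58 (adjusted p = 0.00875). Me1 was at 228 CPM in low library 4 and its log2 fold change was -1.77 without it, still called. Without low libraries 3 and 4 none of the 4 higher calls was kept by edgeR, which then gave 0 higher and 2 lower. The liver had 0 higher and 2 lower, Pgd (log2 -0.64, adjusted p = 0.00620) and Hmox1 (log2 -0.59, adjusted p = 0.0150, lost without low library 3 or high library 2). Of 7 Ah receptor targets, 1 was higher and 1 lower in the colorectum, Aldh3a1 (log2 1.52, adjusted p = 0.0218) and Cyp1b1 (log2 -2.51, adjusted p = 0.0114), and edgeR called 0 of 6 in the liver, 0 at an unadjusted p below 0.05, where DESeq2 called 1 lower. The Cyp1b1 change was -1.49 without low library 4, still called. Aldh3a1 lost its call without low library 2, without low libraries 3 and 4, and on the TPM scale.

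**Figure D5:**
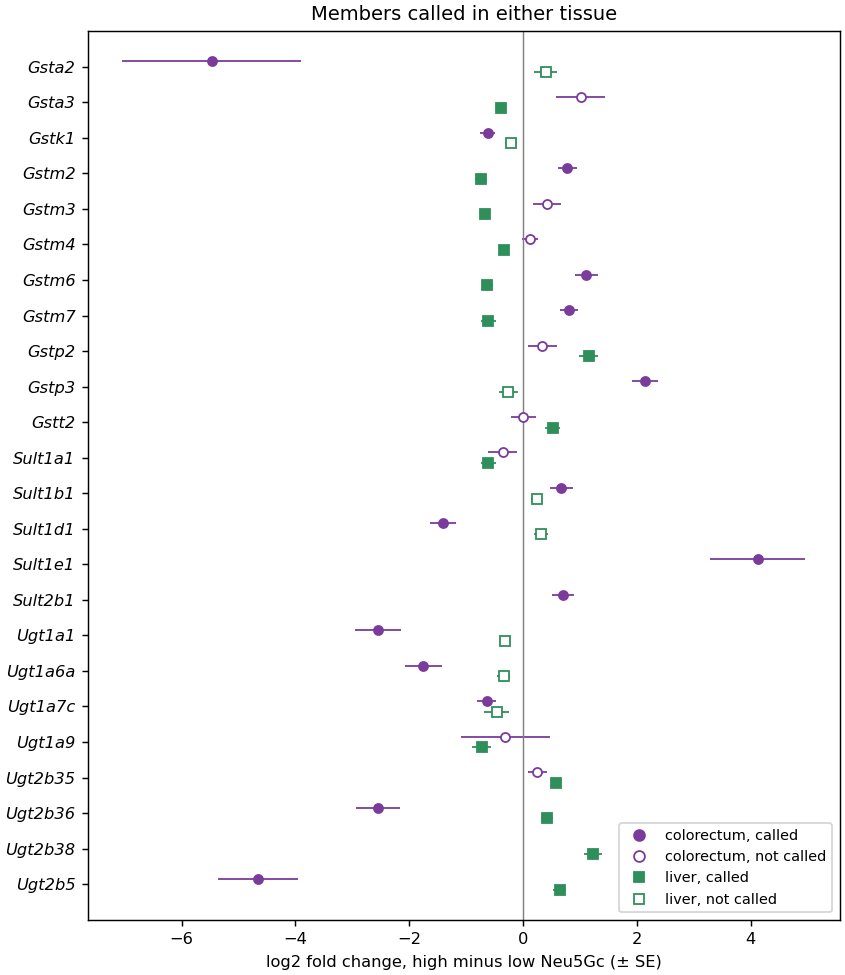
Log2 fold change at high against low Neu5Gc (x axis) with its standard error for the 24 members called in either tissue, in the colorectum (circles) and the liver (squares), filled where called. Gstm2, Gstm6 and Gstm7 lie right of 0 in the colorectum and left of 0 in the liver, and Ugt2b36 and Ugt2b5 lie the other way round.

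Colorectum and liver differed in most members already at low Neu5Gc. With both tissues scaled together, 67.1% of all genes were called, 36.1% higher and 31.1% lower in the colorectum. Of 50 members 40 (80.0%) were called, 9 higher and 31 lower there. A member that passes the filter through 1 tissue alone is bound to differ, so these counts are a description. Sult2b1, for example, was at 0.025 to 0.172 CPM in the liver libraries. Ugt2a2 was at 0 in all low colorectum libraries and at 0.285 to 0.368 CPM in the low liver libraries. Genes of the colorectal side included Ugt1a7c, with a log2 difference in level of 6.28 ± 0.25, Sult2b1 (6.78 ± 0.42) and Gsta1 (3.41 ± 0.45). Transcripts of Gsta1 share 90.5% of their 50-base words with other genes' transcripts, mainly those of Gm3776, so the reads given to Gsta1 are uncertain. Genes of the liver side included Sult2a8 (-10.39 ± 1.36), Gsta3 (-7.37 ± 0.50) and Ugt2b36 (-8.12 ± 0.47). Without low colorectum library 4 the Sult2a8 difference was -13.18. This contrast depends on the scale, since on TPM the median of all genes lay at 0.92 and the members called became 15 higher and 26 lower. On TPM 7 of the 50 members changed sign. Gstt2, Gstt3, Gsta4, Sult1a1 and Ugt1a6a turned from below to above 0, at 1.05, 1.06, 0.19, 0.72 and 0.36 with a pseudocount of 1. Ugt2b37 and Ugt2b38, whose colorectum levels came almost wholly from low library 4, turned from 0.42 and 0.38 to -0.58 and -1.99.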

How the data were processed

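The authors deposited TPM values and estimated counts for each gene and library of both tissues, per the file headers. Per the labels' protocols, Trizol was used for RNA extraction and a NEBNext Ultra RNA kit for library construction. The submitters' processing notes name GRCm39. No aligner, quantifier, annotation or strand setting is given in the sources used here, so antisense or overlapping genes may share reads. The deposited counts were rounded to whole numbers. Gene symbols were found for 35825 of 36118 IDs (99.2%). The 62 members and all gene lists were chosen with earlier results of these data known.

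Each tissue was fitted separately with edgeR 4.0.16 (R 4.3.3; TMM scaling, filterByExpr, robust quasi-likelihood fit), high against low Neu5Gc, with Benjamini-Hochberg adjustment over all genes and a threshold of 0.05. The difference between tissues was an interaction in 1 fit of all 16 libraries. CPM are estimated counts per 1000000 of the library without TMM factors. With counts this deep, low counts limit the near-silent members. Named were the called members, the 3 members of highest TPM per family and tissue, the members whose effect differed between tissues, and up to 4 called genes of each pathway list with the smallest p. Ugt3a2, Ugt2b37, Ugt3a1, Gstz1, Gsta1, Gsta4, Gstm5, Gsto2, Ugt2a2, Sult3a1 and Sult3a2 were named outside this rule, after their values were seen.

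Alternatives were DESeq2 1.42.0 size factors and its Wald test, no count filter, limma 3.58.1 on log2(TPM + 1) and log2(TPM + 0.1) with a TPM minimum of 0.5, a replicate block, each library left out, low colorectum libraries 3 and 4 left out together, and liver counts thinned to 1 depth. The names of the colorectum groups were exchanged for the interaction as an alternative chosen after seeing the data. Tested on simulated data with 200 changed genes, the fit recovered 35% of 2-fold and 82% of 4-fold changes in the colorectum (17893 genes), and 63% and 93% in the liver (15423 genes). For the interaction (18657 genes) it recovered 12% and 56%. Each fold had 100 changed genes. Unchanged genes called in error numbered 5 in the colorectum, 20 in the liver and 3 for the interaction. Shared words are 50-base runs of annotated mouse transcripts that occur in transcripts of another gene. 1 gene of the lists is not reported here.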

Additional observations from a re-analysis of the deposited data

Results flagged for a closer look

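Among 72 groups of 4 or more colorectum libraries tested for 1 library far from the rest, 12 stood out, where chance gives about 1 in 20. Low colorectum library 4, in which kidney tubule genes summed to 15244 CPM, was far above the other 3 low libraries for 8 members. Ugt3a2 was at 418 CPM, Ugt2b38 at 257, Gstz1 at 150, Gsta2 at 50.5, Ugt2b37 at 49.6, Ugt3a1 at 16.1, Ugt2b1 at 5.61 and Sult2a8 at 4.84 CPM. Their levels in the other 3 low libraries did not exceed 50.9 CPM for Gstz1, the zeta class enzyme of tyrosine breakdown, and 1.15 CPM for Ugt3a2. High colorectum library 1 was above the other high libraries for Ugt3a2 at 2.1 CPM, Ugt2b38 at 0.538 CPM and Ugt2b37 at 0.0924 CPM. It also had the highest kidney sum of its group, at 56.5 CPM. High colorectum library 6 was above its group for Gstk1 at 50.8 CPM. The part of kidney RNA in these values was not tested.

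For 11 members the effect of high Neu5Gc differed between colorectum and liver by the interaction in edgeR with Benjamini-Hochberg adjustment. The difference in log2 fold change, colorectum minus liver, was 1.52 for Gstm2, 1.75 for Gstm6, 1.42 for Gstm7, 2.40 for Gstp3, 0.83 for Gstt3 and 4.62 for Sult1e1. It was -5.29 for Ugt2b5, -2.96 for Ugt2b36, -2.22 for Ugt1a1, -1.71 for Sult1d1 and -0.94 for Sult1c2. The Sult1e1 value is a fitted difference over near-zero counts and no bound, and the count filter that kept the gene selects for such a difference. With the colorectum group names exchanged, 4 of these 11 were still called, Gstp3, Ugt1a1, Ugt2b36 and Ugt2b5. Both tissues' groups came with differences in markers. In the colorectum these included posterior homeobox genes and the sums of the skeletal muscle, colonocyte and small intestinal enterocyte genes. In the liver they included skeletal muscle and clock genes and the sums of the male-biased and female-biased genes. Their part in the differences between tissues was not tested.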

How the results depend on the processing

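The 15 colorectum calls became 10 to 19 and the 14 liver calls 7 to 14 when 1 library was left out. By family these ranges were 5 to 7 for GST (6 in full), 4 to 8 for UGT (5) and 1 to 4 for SULT (4) in the colorectum. In the liver they were 4 to 7 for GST (8), 2 to 5 for UGT (5) and 0 to 2 for SULT (1). The interaction gave 8 to 16 calls (11) and the tissue contrast 39 to 44 (40). With limma at a pseudocount of 0.1 the colorectum had 2 SULT calls. DESeq2's Wald test gave 8 UGT and 2 SULT calls in the liver, and no count filter gave 2 SULT calls.

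Replicate numbers are shared by the groups, but same-numbered libraries deviated together with r of only -0.10 to -0.03 (colorectum) and 0.07 to 0.47 (liver), so the numbers were not taken as pairs. Not every liver library correlated best with its own number. With the replicate block, member calls of the colorectum numbered 4 (GST 3, UGT 0, SULT 1) and liver calls 8 (GST 5, UGT 3, SULT 0). Over all genes the block left 477 calls of 2784 in the colorectum, 630 of 1004 in the liver and 540 of 1504 for the interaction.

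Under other tools the colorectum had 3733 (DESeq2), 1801 and 1784 (limma) calls over all genes, and the liver 1737, 1726 and 1727. The interaction gave 2339 with DESeq2. Without 1 library they ran from 1592 to 3654 and from 387 to 935. With TPM the interaction split moved from 763 higher and 741 lower to 1097 and 497, and the tissue contrast from 6746 and 5810 to 12315 and 1783.

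With the colorectum group names exchanged, chosen after seeing the data, the interaction turned sign for most members called as labelled. It was -0.02 for Gstm2, -0.46 for Gstm6, -0.17 for Gstm7, -1.87 for Gstp3, 1.10 for Sult1d1 and -3.53 for Sult1e1. For Ugt1a1, Ugt2b36 and Ugt2b5 it was 2.87, 2.13 and 4.02. Gstt3 and Sult1c2 kept their sign, at 0.23 and -0.06, and were not called.

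Over all settings but that exchange, 10 of 46 members tested in the colorectum, 7 of 47 in the liver, 12 of 50 for the interaction and 7 of 50 for the tissue contrast turned sign at least once. Among the named results signs turned as follows, and the cause was not tested. In the colorectum Gstp1 (0.02) was at -0.03 with limma, -0.12 with the block, -0.20 without low libraries 3 and 4, and -0.17 to 0.12 without 1 library. Gstp2 was at -0.02 without libraries 3 and 4. Gstt2 was at 0.00309 with no filter, 0.00466 and 0.01 with limma, 0.06 with the block, 0.18 without both libraries, and -0.17 to 0.34 without 1. Sult2a8 was at 0.03, 0.35 and -2.67 to 0.67 under the last 3 of these, Ugt1a9 at 0.36 without both and -0.71 to 0.92 without 1, and Glyat at -6.96 to 0.12 without 1. In the liver Gsto1 ranged from -0.13 to 0.05 without 1 library, and Ugt2b34 was at -0.02 with limma. The interaction of Sult2a8 (-2.45) was at 0.86 with the block and 0.34 without low colorectum library 4, and that of Sult2b1 (-0.12) at 0.47 with limma. Between tissues limma gave 0.72 for Sult1a1, 0.36 for Ugt1a6a and 1.06 for Gstt3, and Ugt2b38 (0.38) was at -8.36 without low colorectum library 4.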
